A study of Mus musculus with 96 samples.

Results

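The 8 genes described here handle iron in the cell: the ferritin subunits Ftl1 and Fth1, the importers Tfrc and Slc11a2, the exporter Slc40a1, the iron sensors Ireb2 and Aco1, and the ferritin receptor Ncoa4. They were taken by symbol, for their function, from the 55487 genes of a count table. Horizontal basal cells (HBCs), the reserve stem cells of the olfactory epithelium, came from wild type mice aged 6 to 8 weeks, 2 days after methimazole, a drug that strips the epithelium. They were grown as a primary culture, moved from a tropoelastin to a fibronectin coating, and both daughter cells of 48 divisions were picked by mouth pipette soon after division, so that 96 cells of 1 condition were sequenced with ERCC spike-in RNA. The labels name neither the mouse nor the culture of a cell, so no group could be compared and no test was run: every value describes these cells.

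Iron bound to transferrin enters the cell with the transferrin receptor (Tfrc) and leaves the endosome through DMT1 (Slc11a2). What is not used is stored in ferritin, a hollow shell of heavy (Fth1) and light (Ftl1) chains, of which the heavy chain oxidizes the iron and the light chain helps it to mineralize. NCOA4 carries ferritin to the lysosome when iron is needed, and ferroportin (Slc40a1) is the iron exporter. The sensors IRP1 (Aco1, which is the cytosolic aconitase when it holds an iron-sulfur cluster) and IRP2 (Ireb2) bind a hairpin in mRNA, the iron-responsive element, when iron is scarce. In a 5′ untranslated region the bound hairpin blocks translation, and in the 3′ untranslated region of Tfrc it protects the mRNA from decay. Counts of mRNA do not register translation.

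The hairpins are printed because the sensors act on the mRNAs of these genes through them. Annotated transcripts (GRCm38, Ensembl release 96) were searched for the loop CAGTGN, with A, C or T as N, between 5 paired bases. A C was required 5 bases before the loop, and whether it was unpaired was not checked. Matches that touched coding sequence were left out. The windows of 28 bases are given 5′ to 3′ on the strand of the gene, with the loop in capitals. They lie in the 5′ untranslated regions of Fth1 (chr19:9982733-9982760, plus strand), Ftl1 (chr7:45459779-45459806, minus strand) and Slc40a1 (chr1:45925465-45925492, minus strand), and at 4 places in the 3′ untranslated region of Tfrc (plus strand, chr16:32631220-32631247, chr16:32631599-32631626, chr16:32631664-32631691 and chr16:32631711-32631738, in this order).
Fth1: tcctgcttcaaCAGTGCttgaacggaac
Ftl1: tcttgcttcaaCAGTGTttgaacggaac
Slc40a1: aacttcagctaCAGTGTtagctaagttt
Tfrc element 1: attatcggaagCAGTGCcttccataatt
Tfrc element 2: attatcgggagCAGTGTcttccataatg
Tfrc element 3: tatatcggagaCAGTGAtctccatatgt
Tfrc element 4: attatcgggaaCAGTGTttcccataatt

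The ferritin hairpins were alike at 26 of 28 bases, and from Fth1 to Ftl1 they differed by C3T and C17T, counted from 1 at the 5′ end of the window. The Slc40a1 window shared 13 bases with each of them. Elements 1 and 2 of Tfrc shared 25 bases and differed by A9G, C17T and T28G. Slc11a2, Ireb2, Aco1 and Ncoa4 held 0 windows that met this rule. That says only that these letters and pairings were not in the untranslated regions of the annotated transcripts. Hairpins with a loop or stem of another form were not searched.

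The libraries held between 29454150 and 44849003 counts on genes (median 36152760), and ERCC transcripts took between 1.06% and 5.75% of all counts. Counts were divided by a size factor from the 22 of 92 ERCC transcripts that every cell had counts for (called normalized counts) or by the library total on genes (CPM, the same total in every cell). Levels are compared between genes only as TPM, which is also divided by transcript length. The HBC markers Trp63, Krt5 and Krt14 were counted in all 96 cells. Of the markers of other cell types, C1qa, C1qb and C1qc of macrophages and Slc4a1 of erythroid cells were at 0 counts in every cell. Other genes of these lists were counted: Cd68 in 74 cells, Mrc1 in 47 and Cd14 in 44 for macrophages, and Hba-a1 in 8 for erythroid cells. The 12 macrophage genes together had a median of 625.5 counts a cell and reached 11064, and the 8 erythroid genes had a median of 0 and reached 1267. Among fibroblast genes Dcn and Lum were at 0 in every cell, among endothelial genes Cdh5 and Emcn, and among genes of the olfactory lineage Kit. Pdgfra of the fibroblast list was counted in 15 cells and Gap43 of the olfactory list in 22. Pecam1 of the endothelial list was counted in 92 cells, with 10 or more counts in 5. The summed counts of the fibroblast, endothelial and olfactory lists reached 2132, 1165 and 2533 in single cells.

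Ftl1 (ENSMUSG00000050708, chr7:45457944-45459884) had the highest median TPM of all genes in these cells. Its TPM was lowest at 4707, had a median of 11208.5 and was highest at 19699.3, which rested on 90752 to 419448 counts a cell. Fth1 (ENSMUSG00000024661, chr19:9980598-9985098) stood at rank 15, with a TPM between 1330 and 28785 and a median of 4250. Together, the ferritin mRNAs took a median of 1.03% of all counts on genes, and in the cell highest in ferritin 3.13%. The levels of the ferritin subunits overlapped across cells, but within a cell Ftl1 was above Fth1 in 92 of 96 cells. Of the counts on Ftl1 and its sequence copies elsewhere in the genome, 6.28% to 9.82% lay on the copies, so the level of Ftl1 is uncertain by about that share.

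Tfrc (ENSMUSG00000022797, chr16:32608920-32632794) was also counted in every cell, at a TPM between 14.5 and 285 with a median of 144.8. Its interquartile range was 110 to 183 TPM, so that its lowest cells stood well below the others. The remaining genes were lower. They were Aco1 (ENSMUSG00000028405, chr4:40143081-40198338), Slc11a2 (ENSMUSG00000023030, chr15:100387898-100425072), Ncoa4 (ENSMUSG00000056234, chr14:32159865-32179855) and Ireb2 (ENSMUSG00000032293, chr9:54863789-54912530). Aco1 had a median TPM of 26.4 (highest 83.4), Slc11a2 of 24.5 (highest 120), Ncoa4 of 14.1 (highest 49.03) and Ireb2 of 12.7 (highest 50.96). The lowest cell was at 0 for each of these 4 genes, although each had a count in 93 to 95 cells. Reads of Ncoa4 may be split with its copy Ncoa4-ps, which had a median of 141.5 counts beside 1149 of Ncoa4. The order of the medians was Ftl1, Fth1, Tfrc, Aco1, Slc11a2, Ncoa4, Ireb2 and Slc40a1. The interquartile ranges of Aco1 and Slc11a2, of Slc11a2 and Ncoa4 and of Ncoa4 and Ireb2 overlapped, and Aco1 was above Slc11a2 in 47 cells and below it in 49.

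**Figure D1:**
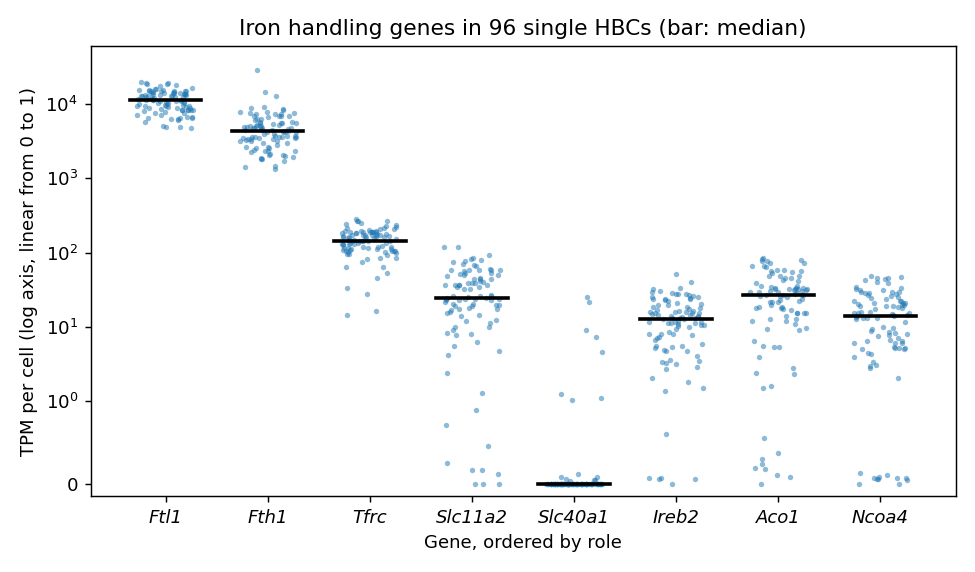
TPM of each gene in each of 96 cells (vertical axis logarithmic above 1 and linear from 0 to 1; 1 point per cell, black bar at the median, genes ordered by role). Ftl1 and Fth1 lie above 1000 TPM in every cell, Tfrc lies between 14.5 and 285, and most cells sit at 0 for Slc40a1.

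Slc40a1 (ENSMUSG00000025993, chr1:45908068-45926523), the only known cellular exporter of free iron, was the exception among the 8 genes. It had a count in 15 of 96 cells (15.6%, exact 95% interval from 9.02% to 24.5%), and 7 of these had fewer than 10 counts. The other 8 cells held 66, 77, 106, 247, 569, 785, 1107 and 1887 counts, up to 25.1 TPM. No pair had 10 or more counts in both sisters. In pair 29, for instance, the daughter cells had 0 and 1887 counts, and in pair 36 they had 0 and 1107. The only pair with a count in both was pair 48, with 4 and 66. Of the 15 cells, 12 carried the number 2 within their pair, and what the number stands for is not stated.

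Slc40a1 is high in macrophages that recycle iron, so macrophage markers were set beside it. In the 8 cells with 10 or more Slc40a1 counts the 12 macrophage genes summed to between 1 and 2721 counts (median 807), and in the other 88 cells to between 0 and 11064 (median 606). The ranges overlapped, and C1qa, C1qb and C1qc were at 0 in all of these cells. All 15 cells with a Slc40a1 count had at least 3433 counts of Trp63, 44145 of Krt5 and 7369 of Krt14. The lowest Krt14 count of these belonged to the cell with the most Slc40a1, beside a median of 135243 over all cells. That cell had 8318 counts of Trp63 and 62319 of Krt5, beside medians of 6999 and 106400 over all cells. The 5 ERCC transcripts nearest in mean TPM were counted in between 1 and 11 cells. A count of 0 in a library allows up to 3 counts, for counting error only, and whether a cell at 0 lacked the transcript or lost it in library preparation cannot be told apart.

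Sister cells were compared by the ratio of the higher to the lower normalized count, with a cutoff of 1.5. A pair with a count in only 1 sister counted as at the cutoff. A pseudocount of 1 was added only for values on a log scale. A gene entered the background if 10% or more of the cells had 10 counts of it. Of these 14463 genes, 79.8% reached the cutoff in 24 or more of the 48 pairs, and the median gene did so in 34. All of the 8 genes except Slc40a1 passed this filter, and 4 of these 7 (Slc11a2, Ireb2, Aco1 and Ncoa4) reached the cutoff in 24 or more pairs. The ferritin genes were at the other end. Fth1 reached the cutoff in 8 pairs (16.7%, exact 95% interval from 7.48% to 30.2%) and Ftl1 in 11 (22.9%, from 12.0% to 37.3%). On CPM the share was 16.7% for Fth1 and 10.4% for Ftl1. Fewer pairs were found for 0.263% of genes in the case of Fth1 and for 1.16% in that of Ftl1.

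Tfrc lay between, with 23 pairs (47.9%, exact 95% interval from 33.3% to 62.8%), a count below which 18.3% of genes fell. The low genes reached the cutoff in 37 pairs (Ireb2), 38 pairs (Aco1 and Ncoa4) and 40 pairs (Slc11a2). The median ratio between sisters was 1.22 for Fth1, 1.30 for Ftl1 and 1.46 for Tfrc, and for the 4 low genes it was between 2.37 and 2.66 in pairs with a count in both cells. The 3 most abundant of the genes thus had the lowest ratios.

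Spike-in transcripts, which were added in equal amount to each cell, gave a spread at a like mean TPM that holds no difference between cells. The abundant spike-ins also set the size factors, which lowers their own spread. Of the 5 ERCC transcripts nearest to Ftl1 in mean TPM, none reached the cutoff in any pair, and of those nearest to Fth1 the highest did so in 1 pair. The ferritin genes lay above these values. For Tfrc the nearest ERCC transcripts reached the cutoff in 10 to 29 pairs, a range that held its 23. The counts of Aco1 (range of ERCC 32 to 39 pairs), Ireb2 and Ncoa4 (both 30 to 42 pairs) also lay within the range of spike-ins, and Slc11a2 with 40 pairs was 1 above it. For Tfrc, whose nearest spike-ins were counted in all 96 cells, the number of pairs at the cutoff was thus not above that of spike-ins. The size of the ratios of spike-ins was not compared. The spike-ins nearest to Ireb2 and Ncoa4 were counted in 42 to 71 cells, and those nearest to Aco1 and Slc11a2 in 77 to 95. The genes themselves had counts in 93 to 95 cells. A pair with a count in only 1 sister reached the cutoff, so missed spike-ins could raise these ranges. For these genes the ranges are no measure of the spread at equal detection. Slc40a1 reached the cutoff in 14 pairs, of which 13 had a count in only 1 sister. Its nearest spike-ins, counted in 1 to 11 cells, reached it in 1 to 11 pairs. Both numbers follow from how many cells had a count, so they say nothing on the size of sister differences.

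**Figure D2:**
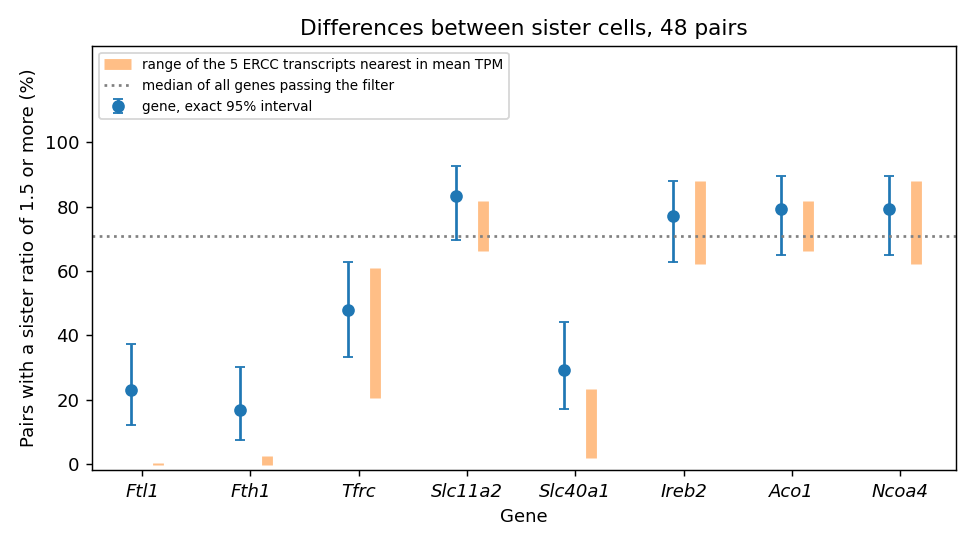
Percent of 48 pairs in which the sister ratio reached 1.5, for each gene (blue points with exact 95% intervals), beside the range over the 5 ERCC transcripts nearest in mean TPM (orange bars, drawn 0.4 points beyond each end so that a range of 0 shows) and the median of all genes that passed the filter (dotted line at 70.8%). Ftl1 at 22.9% and Fth1 at 16.7% are above their spike-ins and below the median gene, and Tfrc at 47.9% is within the range of its spike-ins.

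The largest differences in ferritin fell in few pairs, for which values are given for daughter 1 and then daughter 2. In pair 22, the Fth1 counts were 78188 and 742301 (2954 and 28785 TPM), a ratio of 10.8, and Fth1 alone was 2.19% of the counts of the higher cell against 0.237% in its sister. Ftl1 in that pair was 14318.4 and 16519.1 TPM, a ratio of 1.31 in normalized counts. The next largest Fth1 ratio was 4.91 in pair 3 (62031 and 243347 counts), where Ftl1 had 127197 and 266541 counts. In pair 1 the ratio was 2.69 for Fth1 and 2.72 for Ftl1, the largest of that gene. In these 3 pairs the same daughter cell was the higher for both subunits.

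The sisters of pair 22 also differed in other genes, chosen after their values were seen. Of a list of 10 genes of the antioxidant response, 7 were higher and 3 lower in TPM in the cell high in Fth1. Hmox1, the enzyme that opens heme and frees its iron, was at 33.3 TPM in the cell low in Fth1 and at 415 in its sister. Gclm, the modifier subunit of glutathione synthesis, was at 64.5 and 455 TPM, and Slc7a11, the cystine importer, at 92.01 and 439 TPM. The thioredoxin reductase Txnrd1 was lower in the Fth1-rich cell (215 and 108 TPM), as were Srxn1 (108.5 and 74.6 TPM) and Bach1 (17.7 and 4.25 TPM). The biliverdin reductase Blvrb was also lower, at 431.5 and 256 TPM. Tfrc was lower too, at 230.8 and 104 TPM, and so was Krt14, at 4318 and 779 TPM. The other HBC markers differed less, with Krt5 at 1771 and 1764 TPM and Trp63 at 141.8 and 109.1 TPM. In pair 3, Tfrc was likewise lower in the cell high in Fth1 (131 and 32.9 TPM), whereas in pair 1 it was higher (74.05 and 116 TPM). These pairs were chosen for their Fth1 ratio, and a single division gives no replicate of it.

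For Tfrc the largest ratio was 13.1, in pair 27, with 20728 and 1463 counts. The low genes gave ratios set by cells near 0. Slc11a2 had 8406 and 13 counts in pair 36, Aco1 had 27 and 4035 in pair 48, and Ncoa4 had 5 and 1759 in pair 29. A cell under 10 counts was found for Slc11a2 in 4 cells, for Ireb2 and Aco1 in 3 each and for Ncoa4 in 10, and only for Ncoa4 were both sisters of a pair (1 pair) under 10. In 79 of 96 cells none of these 4 genes was under 10 counts, and in 2 cells more than a single gene was, so the near absences mostly fell in different cells.

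**Figure D3:**
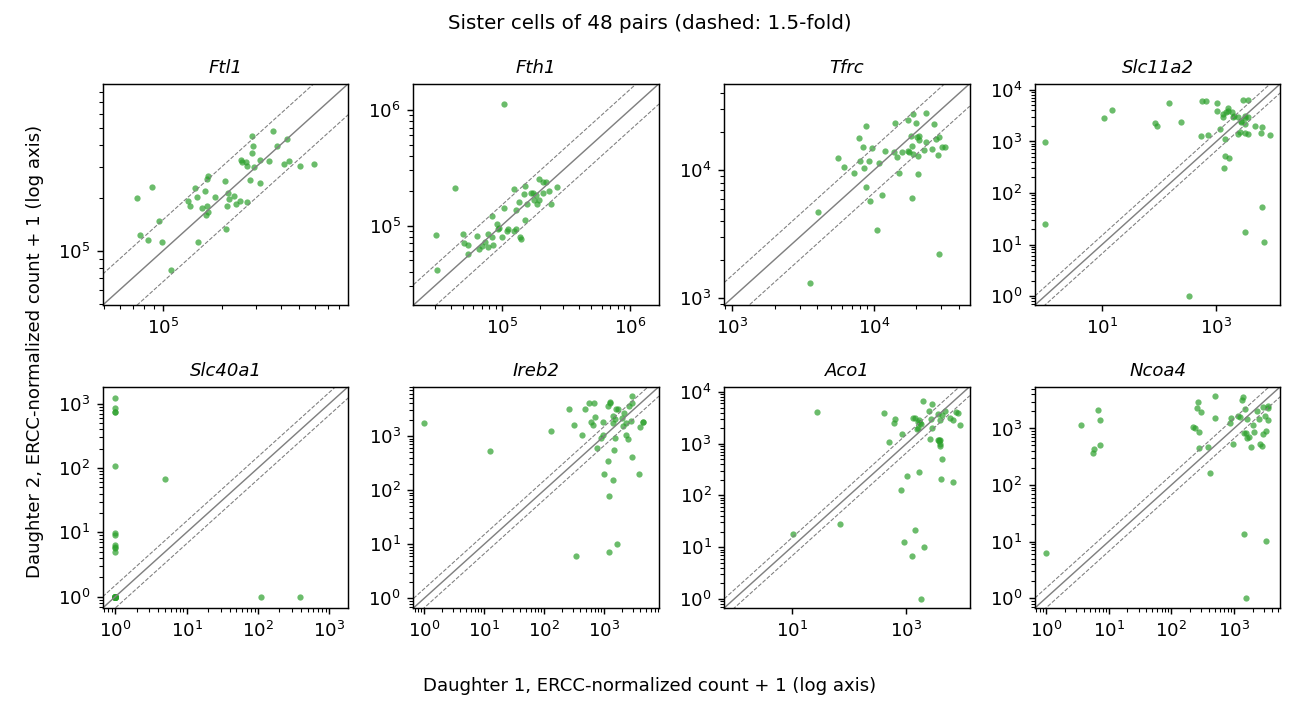
Normalized count plus 1 of daughter 1 (horizontal) against daughter 2 (vertical) in 48 pairs for each gene, both axes logarithmic, with the line of equality and dashed lines at 1.5-fold. The ferritin pairs follow the diagonal, with the Fth1 pair at a ratio of 10.8 apart from the rest, and in the panels of Slc11a2, Ireb2, Aco1 and Ncoa4 single cells fall towards 0 while their sisters do not.

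How far sisters shared a level was measured by the intraclass correlation on log2(normalized count + 1), which is 1 when sisters are equal and near 0 when they are no more alike than other cells. A value of 0.5 or more was found for 6.9% of all genes tested, and for Ftl1 (0.715) and Fth1 (0.589) among the 8. The value was higher than that of Ftl1 in few genes, since 99.5% of genes were lower, and 97.1% were lower than Fth1. Tfrc was at 0.421. Aco1 (0.222) and Ncoa4 (0.141) were near the median gene at 0.160, and Slc11a2 (0.0897), Ireb2 (0.0426) and Slc40a1 (-0.0773) were below it. Of the 5 ERCC transcripts nearest to Ftl1, the highest reached 0.598, and for Fth1 the highest was 0.109. For Tfrc the highest was 0.217. Without pair 22, the value of Fth1 was 0.733.

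The names of the deposited data place the cells in 12 sets of 8, each of 4 whole pairs. Whether a set was handled together is not stated. Sets took 23.7% of the variance of Ftl1, 18.7% of that of Fth1 and 25.9% of that of Tfrc. Each set holds 4 whole pairs, so differences between pairs alone place part of the variance between sets. That part was not computed, and the shares are no measure of an effect of sets. Set 1 had the lowest median TPM of all 3 genes (7843, 2245 and 88.6). Its 4 pairs, numbered 1 to 4, all reached the cutoff for Ftl1, with ratios of 2.72, 1.61, 2.62 and 1.57. Without set 1 the share of Ftl1 pairs at the cutoff was 15.9%, against 22.9% with it. After centring within sets, the intraclass correlation was 0.571 for Ftl1 and 0.507 for Fth1. For Tfrc it was 0.0974, and without set 1 it was 0.271. Centring on 4 pairs lowers the intraclass correlation by itself, by an amount that was not computed.

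Sisters also shared the ratio of light to heavy chain mRNA. Over 96 cells the ratio of Ftl1 to Fth1 TPM was between 0.574 and 12.0 with a median of 2.51, and its interquartile range was 2.01 to 3.54. Sisters differed in it by a median of 1.24-fold, and the intraclass correlation of its log2 value was 0.586. The ratio does not depend on the scaling of a library. The lowest ratio belonged to the Fth1-rich cell of pair 22. The ratio of Tfrc to Fth1, an uptake gene over a storage gene, had a median of 0.0346 and ran from 0.00196 to 0.125, with an intraclass correlation of 0.483. For the sensors, Ireb2 to Aco1 had a median of 0.456 in the 94 cells with both, with Ireb2 the higher in 28.

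**Figure D4:**
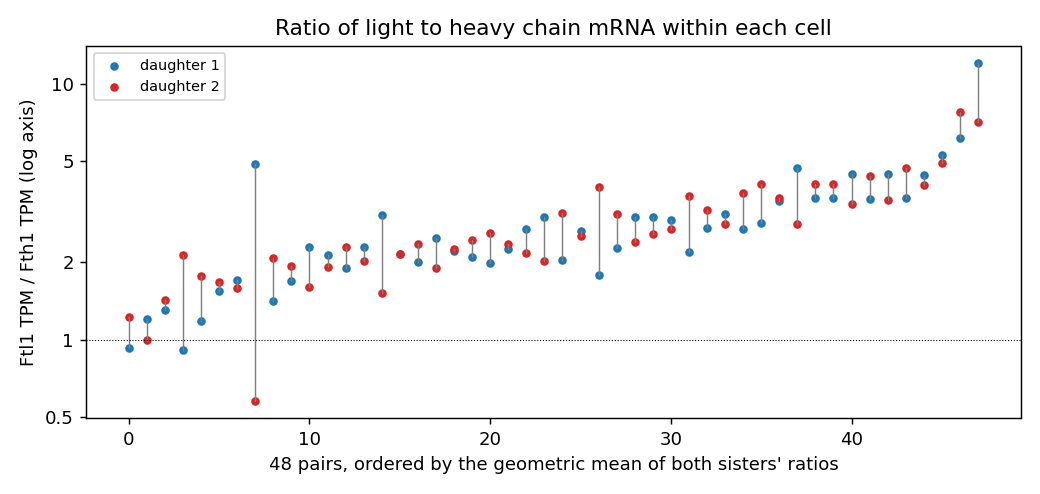
Ratio of Ftl1 TPM to Fth1 TPM (logarithmic axis) in the daughter cells of 48 pairs, joined by a line and ordered by the geometric mean of both. Most sisters lie close together (median difference 1.24-fold) while single cells run from 0.574 to 12.0, and the exception with a long line is pair 22, which holds the lowest cell.

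Across cells, the ferritin subunits varied together. Spearman's rho between Ftl1 and Fth1 on log2(CPM + 1) was 0.438 over 96 cells, 0.532 after centring within sets and 0.301 for the differences between sisters in 48 pairs. These cells share sisters, sets and library scaling, so the values are a description. The same daughter was the higher for both genes in 28 of 48 pairs on CPM and in 33 on normalized counts. Over the 21 combinations of the 7 genes that passed the filter, the median rho was -0.00543, and that of Ftl1 with Fth1 was the highest.

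The lowest of the 21 values was that of Fth1 with Tfrc, at -0.26 over cells and -0.38 after centring within sets. It was 0.0338 for the differences between sisters, and with ERCC scaling it was -0.0176 over cells, and by the ERCC total 0.0262, so that the value depended on how counts were scaled. With ERCC scaling the median over the 21 combinations was 0.178, and both Ftl1 (rho 0.628) and Tfrc (0.525) followed the total RNA of the cell, measured as scaled counts on genes. Fth1 with Aco1 was close to the lowest value, at -0.251 over cells, -0.242 after centring and -0.304 for the differences between sisters on CPM. Its values on ERCC scaling were -0.07 over cells and -0.284 for these differences. The sensors Ireb2 and Aco1 had a rho of -0.0236. All values among the 5 low genes lay between -0.133 and 0.139 on CPM, and weak values in sparse counts are no finding.

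Transcription of both ferritin genes is known to be raised by NRF2 (Nfe2l2), the factor of the antioxidant response. A list of NRF2, its regulators Keap1 and Bach1 and 7 of its target genes was set beside them. The list was chosen with earlier results of these data known, so its values describe these cells and are no independent support. A rho of 0.3 or more with Ftl1 was found for 1.13% of all genes and for 7 of the 10 list genes, and with Fth1 for 1.69% of all genes and for 8 of the 10. Within the list, 4 of 10 genes reached the cutoff in 24 or more pairs and 5 had an intraclass correlation of 0.5 or more, beside 79.8% and 6.9% of all genes tested. Nqo1 had the highest median (896 TPM), Gclm the fewest pairs at the cutoff (17), and Bach1 the lowest median (4.18 TPM) and the most pairs (40). With Tfrc, 0.83% of all genes and 0 of the 10 reached a rho of 0.3. The mean of the list had a rho of 0.632 with Ftl1, 0.557 with Fth1 and -0.104 with Tfrc. After centring within sets these values were 0.659, 0.601 and -0.364, and for the differences between sisters they were 0.415, 0.41 and -0.276. For these differences 3 of the 10 genes reached a rho of 0.3 with Ftl1 and 3 with Fth1, and Txnrd1 had -0.4 with Fth1. The share of all genes at 0.3 in these differences was not computed, so these counts have no background. The sign of Tfrc did not hold under ERCC scaling, where its value was 0.189, against 0.691 for Ftl1 and 0.528 for Fth1.

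**Figure D5:**
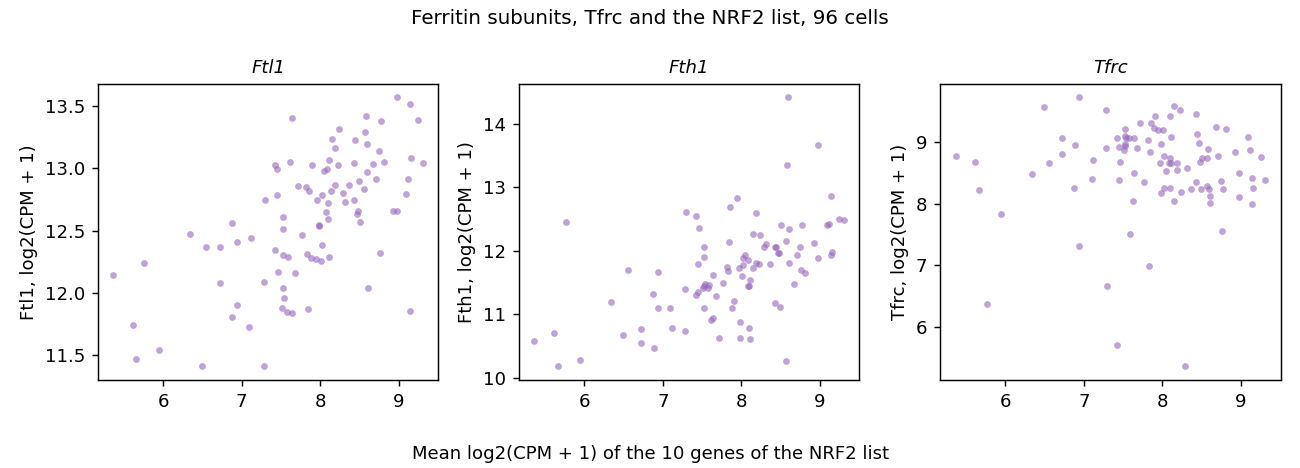
Log2(CPM + 1) of Ftl1, Fth1 and Tfrc (vertical) against the mean log2(CPM + 1) of the 10 genes of the NRF2 list (horizontal) in 96 cells, 1 point per cell. Ftl1 (rho 0.632) and Fth1 (rho 0.557) are higher in cells with a higher list mean, and Tfrc has a rho of -0.104.

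The genes most like each ferritin subunit, by rho on log2(CPM + 1) over 96 cells with its sequence copies left out, were genes of oxidant defence. For Ftl1 they were Gclc (0.556), the catalytic subunit of glutathione synthesis, Slc7a11 (0.544) and the carbonyl reductase Cbr3 (0.541). For Fth1 they were Gclm (0.663), the quinone reductase Nqo1 (0.643) and the glutathione transferase Gsta3 (0.599). Gclc, Slc7a11, Gclm and Nqo1 are also genes of the NRF2 list, so these values are not separate from those of the list. In the differences between sisters, Gclm and Nqo1 kept values of 0.459 and 0.414 with Fth1 and Gclc 0.421 with Ftl1, whereas Slc7a11 was at 0.0436 and Cbr3 at 0.116 with Ftl1. The closest gene to Tfrc was Ppp1r2-ps2 (0.425), followed by the poly(A)-binding protein gene Pabpc1 (0.417) and Gm5586 (0.398). Genes close to Slc40a1 were Pced1b (0.451) and Rhpn2 (0.412), and the closest to Slc11a2 were Metap1d, Trmt1l and Gm10382 (0.375 to 0.414). Those to Ireb2 were Akt2-ps, Adcy3 and Tnk1 (0.407 to 0.42), to Aco1 Bok, Gm5865 and Snn (0.344 to 0.408) and to Ncoa4 Snx14, Ggh and Eif4e2 (0.376 to 0.433). These are the highest values out of all 14463 genes, and most belong to genes of sparse counts.

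A binding sequence of NRF2, TGACNNNGC on either strand, was searched in RefSeq promoters (GRCm38.p6) from 250 bases before to 50 after the start. It was in 12.4% of 32851 promoters. Promoters of 6 of the 8 genes were found, Slc40a1 and Slc11a2 not being matched, and 1 of these genes (Ncoa4, in an alternative promoter) had a match. Neither Ftl1 nor Fth1 had a match in this window, and of the NRF2 list Nqo1 and Slc7a11 had none either. Sequence outside the window was not searched, so no match here does not show that a gene lacks the sequence. Counted as promoters, since a gene can have several, 1 of 10 promoters of the iron genes (10%) and 5 of 11 of the NRF2 list (45.5%) had a match.

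For cycling, the values of Ftl1, Fth1 and Tfrc depended on the scaling. The mean of 17 genes of dividing cells had a rho of 0.0142 with Tfrc, 0.0188 with Ftl1 and -0.0618 with Fth1 on CPM. With ERCC scaling the values were 0.331, 0.353 and 0.198, where the level of each gene also carries the RNA content of the cell. For the differences between sisters on CPM they were 0.0399, 0.0505 and -0.0899. Ncoa4 had -0.196 on CPM and 0.000705 with ERCC scaling. In the list, all 17 genes reached the cutoff in 24 or more pairs and 15 had an intraclass correlation of 0.5 or more, beside 79.8% and 6.9% of all genes tested. Birc5 had the highest median (257 TPM) and, with Top2a, the fewest pairs at the cutoff (26), Cenpf the lowest median (10.9 TPM) and Cdc20 the most pairs (39).

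Other genes of iron handling were taken from lists drawn up by function. Of all genes tested, 79.8% reached the cutoff in 24 or more pairs, and a count near that share is no trait of a list. In uptake and transport, 9 of 15 genes passed the filter and 7 of the 9 reached the cutoff in 24 or more pairs. Snx3, which returns the transferrin receptor to the surface, was the highest at a median of 203 TPM, the reductase Steap1 and Rab11fip5 had the most pairs at the cutoff (38), the metal importer Slc39a8 the lowest median (0 TPM) and, with Snx3, the fewest pairs (22), and the receptor Tfr2 and the reductase Cybrd1 were at 0 counts in all 96 cells, with an exact 95% interval for the share of cells with a count up to 3.77%, which is no limit on cells that lost the transcript in library preparation. In storage and delivery, 6 of 7 passed and 4 of these reached the cutoff in 24 or more pairs. The iron chaperones Pcbp1 (159 TPM) and Pcbp2 (167 TPM) and the glutaredoxin Glrx3 (191 TPM) were counted in every cell, and mitochondrial ferritin (Ftmt) was at 0. Sisters differed at the cutoff in 20 pairs for Pcbp1, the fewest, and in 38 for Pcbp4, the most, and Pcbp3 had the lowest median of the genes that passed, 2.704 TPM. In export, 2 of 6 genes passed and 1 reached the cutoff in 24 or more pairs. The hepcidin genes Hamp and Hamp2 were at 0, the heme and choline transporter Flvcr1 had a median of 2.56 TPM and 39 pairs at the cutoff, and the ferroxidase Cp had a count in 34 cells and 23 pairs at the cutoff. Heph, another ferroxidase, had a count in 20 cells, up to 2362.

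Among the 9 measured genes of IRP and ferritin turnover, all passed and 8 reached the cutoff in 24 or more pairs, beside 79.8% of all genes tested. Fbxl5, the iron-sensing receptor that has IRP2 degraded, had a median of 25.9 TPM and reached the cutoff in 41 pairs. The ubiquitin ligase subunit Rbx1 was the highest at 205 TPM with the fewest pairs, 16, the autophagy gene Atg7 had the most pairs, 43, and Herc2 was the lowest at 6.29 TPM. The autophagosome protein gene Map1lc3b, with 165 TPM, was the only gene of this list with an intraclass correlation of 0.5 or more (0.563). Of all genes tested, 6.9% had such a value.

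In heme synthesis and breakdown 14 of 16 genes passed, 11 reached the cutoff in 24 or more pairs and 3 had an intraclass correlation of 0.5 or more. Over all genes tested the shares were 79.8% and 6.9%, so the count at the cutoff was near that of all genes. Ppox had the most pairs at the cutoff (42) and Abcg2 the fewest (15) and the lowest median (0 TPM). The 3 genes with an intraclass correlation of 0.5 or more were the biliverdin reductase Blvrb (0.801), the heme transporter Slc48a1 (0.677) and Alas1, the first enzyme of heme synthesis (0.651). Blvrb also had a rho of 0.507 with Ftl1 and of 0.481 with Fth1. Hmox1 ranged from 0.195 to 6077 TPM, with its highest value in pair 17, whose sister cell was at 58.3. The Hmox1-rich cell had 13496.2 TPM of Ftl1 and 6192 of Fth1, and its sister had 12967 and 4782. In normalized counts the sister was the higher for both, with 417952.5 against 309110.7 for Ftl1 and 210363.4 against 192275.5 for Fth1. The next highest Hmox1 values were those of pair 14 (1191 and 2162 TPM), whose Ftl1 of 8214 and 7015 TPM was below the median cell.

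All 28 genes of mitochondrial iron and iron-sulfur cluster assembly passed, 27 reached the cutoff in 24 or more pairs, and 1 had an intraclass correlation of 0.5 or more (the chaperone Hspa9, 0.633). For this and the next 2 lists, the shares over all genes tested were 79.8% and 6.9%. Hspa9 was also the highest at 448 TPM with the fewest pairs, 12, the transporter Abcb10 had the most pairs, 41, and the reductase Fdxr the lowest median, 0 TPM. All 4 further transcripts with known iron-responsive elements passed and reached the cutoff in 24 or more pairs. Cdc14a was the lowest of them at 0.454 TPM, with the most pairs, 36. Of 7 genes of ferroptosis, the iron-dependent death by lipid peroxides, 6 passed and 5 reached the cutoff in 24 or more pairs, and 1 (Slc3a2, 0.534) had an intraclass correlation of 0.5 or more. Gpx4, the peroxidase that prevents it, had a median of 741 TPM, was at 303 TPM or more in every cell and had a rho of 0.392 with Fth1 and 0.226 with Ftl1. It reached the cutoff in 19 pairs, the fewest of the list, Lpcat3 in 34, the most, and Aifm2 and Alox12 had the lowest median, 0 TPM.

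Over these lists, genes with a rho of 0.3 or more with Ftl1 were 3 of 14 in heme, 1 of 6 in ferroptosis and 0 of 9 in uptake, 0 of 6 in storage, 0 of 9 in turnover and 0 of 28 in iron-sulfur assembly. With Fth1 they were 1 of 14 in heme, 2 of 6 in ferroptosis and 1 of 28 in iron-sulfur assembly, and 0 in uptake, storage, export and turnover. With Tfrc they were 0 in each of these lists. Of all genes tested, 1.13% reached a rho of 0.3 with Ftl1, 1.69% with Fth1 and 0.83% with Tfrc. The only gene of these lists at -0.3 or below was Steap1 of uptake, with Ftl1 (-0.374). The share of all genes at -0.3 or below was not computed.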

How the data were processed

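Per the submitters' processing notes and the methods of the study, the authors trimmed reads with Trimmomatic 0.39, aligned read pairs with STAR 2.7.11a to GRCm38 (Ensembl release 100) with ERCC sequences, and derived counts with StringTie 2.2.1. The deposited table holds whole counts for each gene in each cell, not normalized, and 96 deposited tables hold TPM per gene. Strand use in counting is not given in the sources used here. Each library is 1 cell, read to between 29454150 and 44849003 counts.

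Counts were scaled by ERCC size factors or to CPM (Python 3.11.15, numpy 2.4.6, scipy 1.17.1, pandas 2.3.3, matplotlib 3.10.9). Intervals are Clopper-Pearson at 95% and cover counting error only. Correlations are Spearman's rho. The calculations were tested on simulated data. Hairpins were searched in annotated transcripts of Ensembl release 96, and promoters come from RefSeq.

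The 8 genes and the lists were chosen with earlier results of these data known. Genes named are the 8 genes, for each list the highest and lowest median TPM and the most and fewest pairs at the cutoff, and the 3 genes most like each of the 8, of which a few are not reported here. Other list genes, such as Hmox1, Gpx4, Fbxl5 and Heph, and those given for pair 22 were chosen after their values were seen. Ftl1, Ncoa4, Slc11a2 and Fth1 have near-identical copies, found as genes that share at least 50 words of 31 bases. Alternatives covered scaling, cutoff, pseudocount, sets left out and summed copies. All 96 cells are 1 group, since no label separates them.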

Additional observations from a re-analysis of the deposited data

Results flagged for a closer look

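Reads on rows outside the 8 genes were flagged for copies of ferritin. The 9 copies of Ftl1 held a median of 17986 counts a cell, between 6.28% and 9.82% of the counts on Ftl1 and its copies together, and their summed CPM had a rho of 0.973 with Ftl1 over 96 cells. The largest was Ftl1-ps1 with 993188 counts in all. How reads that match both were divided was not tested, so the level of Ftl1 is uncertain by about that share: summed with its copies its median was 12410.5 TPM, and the share of pairs at the cutoff was 22.9% in both cases. The only copy of Fth1, Gm6977, had a count in 70 cells and a total of 1471. For Ncoa4, the copy Ncoa4-ps had a median of 141.5 counts beside 1149 of Ncoa4, with a rho of 0.913 between them.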

How the results depend on the processing

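The pairs of Ftl1 at the cutoff (22.9%) were 10.4% on CPM, 10.4% by the median of ratios over genes and 6.25% on TPM. At a cutoff of 2 and at a looser one they were 4.17% and 60.4%, those of Fth1 6.25% and 45.8% and those of Tfrc 20.8% and 64.6%. The intraclass correlation of Tfrc was 0.0974 after centring within sets, and between 0.271 and 0.579 with a set left out. The spread of Tfrc between the 10th and 90th percentile of cells, 2.56-fold in TPM, was 4.05 by ERCC ratios and 3.99 by the ERCC total. By these, the rho with cycling was 0.353 and 0.343 for Ftl1, 0.198 and 0.202 for Fth1 and 0.331 and 0.336 for Tfrc, and that of Tfrc with the NRF2 list 0.189 and 0.207, beside -0.364 after centring within sets. The rho of Fth1 with Tfrc was -0.0176 by ERCC ratios and reversed to 0.0262 by the ERCC total, that of Aco1 with the NRF2 list (-0.208) to 0.0625 and 0.0631, and the sister differences of Ftl1 and Fth1 had 0.562 by the ERCC total. Cells counted were 8 for Slc40a1 at 10 counts and 8 at a TPM of 1, at which Slc11a2 had 86, Ireb2 90, Aco1 87 and Ncoa4 85 (86 at 10 counts). Over every gene with a count the backgrounds were 38.1% and 3.8%, and over genes of 1000 or more the latter was 11.6%. The causes were not tested. Of 838 alternative values 789 stayed within the main interval or spread, among them every value with a set left out for Ftl1 and Fth1. A value with a set left out keeps most of the same cells, so it was likely from the start to stay within. Another 46 values moved outside and 3 changed sign. Leaving out pair 22, and the alternatives for the NRF2 list, were chosen after values were seen. Sister pairs are compared throughout, and a replicate block has no place in a single group. What limits these data is 1 condition without replicates, low genes within or near the range of spike-ins of like mean TPM, and mRNA in place of protein.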
